A study of Homo sapiens with 13 samples.

Results

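RNA-seq of MDA-MB-231 cells gave the levels of long intergenic non-coding RNAs with a LINC number and of antisense RNAs with an AS suffix. The cells are an established human line of triple-negative breast cancer. Genes were taken by name from the table of 38616 genes, and 2248 carried such a name. Of these, 278 had a mean normalized read count of at least 30 over 8 libraries and form the set described here, 99 LINC genes and 179 antisense genes. The third sg1 library was left out of that mean because it stands apart, and OIP5-AS1 was left out by name. The members were thus selected on their level, and the level itself is a description and not a finding. Knockout libraries are part of that mean, so a gene low in NTC could enter through the libraries in which it was high. The members' means ran from 30.2 to 7017 with a median of 71.9. LINC02323, FAM13A-AS1 and LINC00910 lay just inside the limit, with means of 30.6, 30.4 and 30.2, and SEPT7-AS1, DNMBP-AS1 and HHIP-AS1 lay just outside it, with 29.8, 29.7 and 29.5. All 278 members passed the filter for testing, which asks 3 or more libraries for a count of 10 or more and left 15965 genes.

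The comparison had 3 groups of 3 libraries. Knockout lines carried 1 of 2 guides against VIRMA, labelled KIAA-sg1 and KIAA-sg2 and called sg1 and sg2 here, and control lines carried a non-targeting control (NTC). VIRMA, formerly KIAA1429, is a scaffold subunit of the complex that writes N6-methyladenosine (m6A) on RNA. All lines, controls included, were infected with lentivirus, selected as stable lines and labelled passage P2. MeRIP-seq, in which an antibody against m6A pulls down fragmented mRNA, had 1 pull-down and 1 input library each for VIRMA-depleted (KD) and NTC cells. Whether libraries of 1 group are separate cultures is not in the labels, and the p-values below therefore reflect library spread that may be technical.

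LINC RNAs come from genes that lie between protein-coding genes, and antisense RNAs start on the strand opposite a named gene. Many start at promoters that fire in both directions, and many are kept at low levels by nuclear decay through the RNA exosome. Some act on the gene next to them, some host small nucleolar RNAs in their introns, and a few have turned out to encode small proteins. Long non-coding RNAs carry m6A too, placed by the same writer complex as on mRNA.

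Libraries held between 13975173 and 22051705 gene reads, and members took between 26.2 and 30.3 of every 10000 reads. VIRMA counts were 1437, 1560 and 1613 in sg1, 1566, 1990 and 2170 in sg2, and 2196, 2122 and 2689 in NTC. The sg1 libraries lay below all NTC libraries, and the highest sg2 library exceeded the lowest NTC library. The libraries sg1-3 and sg2-1 stood apart. In sg1-3 the summed count of 10 matrix and stromal genes was 10860, against 507 in sg2-3 and 170 to 272 in the remaining libraries. These genes were listed because earlier results of these data had shown them high in 1 library, so their sum is no test. CDH2 at 4243 and SPARC at 3616 had the highest counts among them. Reads of sg1-3 differed from sg1-1 and sg1-2 with a mean chi-square per gene of 24.2 and 27.8, against 4.04 between sg1-1 and sg1-2. In sg2-1, reads differed from sg2-2 and sg2-3 with a mean chi-square per gene of 94.3 and 99.3, against 4.96 between sg2-2 and sg2-3. The value of sg2-1 was nearer to the sg1 mean than to the mean of sg2-2 and sg2-3 in 194 of 278 members. It was kept in the group of its label, and whether that label is right was not tested, which bears on every sg2 value below. Reads of 268 small RNA genes per 10000 also set sg2-1 beside sg1, at 20.6 to 27.3 in sg1, 31.2 in sg2-1, 103 in sg2-2, 98.7 in sg2-3 and 55.4 to 95 in NTC; the part of small RNA content in the results below was not tested. The line's usual markers VIM, CD44, AXL, EGFR, MSN and CAV1 were high in all libraries, and ESR1 and PGR reached at most 7.07 and 6.50. ERBB2, expected to be low, had 911 to 1820, and EPCAM had 92.3 to 316.

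Annotation placed the members close to other genes. RefSeq gave a position for 270, of which 263 are classed as lncRNA, 2 as antisense RNA, 1 as a transcribed pseudogene and 4 as protein-coding. Of 174 antisense members with a position, 126 (72.4%) overlapped a protein-coding gene, against 14 of 96 LINC members (14.6%). Antisense genes are named by such a position, so their share may follow in part from the choice by name. Whether the authors counted reads by strand was not given in the sources used here. Without strand, for those 126 genes, reads of the antisense RNA and of its partner cannot be told apart. In 45 members the symbol has since changed, 24 of them to a name ending in DT for divergent transcript.

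Of 213 members with a RefSeq promoter entry, 65 (30.5%; exact 95% interval 24.4% to 37.2%) had a protein-coding start head to head within 1000 bases, against 1286 of 11462 lncRNA promoters (11.2%). The share was 58 of 136 (42.6%) for antisense and 7 of 77 (9.09%) for LINC members. Windows of 300 bases, 250 before to 50 after the start, had a median GC content of 64.0% and a median of 23 CpG dinucleotides in members, against 50.0% and 5 in all lncRNA promoters and 62.7% and 22 in protein-coding promoters. Head-to-head members stood at 69.7% and 30, and the other 148 members at 60.5% and 16.5. The choice of members by name and by level may bear on these shares, and no test was made. An AS suffix names a gene by its position at another gene. The share of LINC members, 9.09%, did not exceed the 11.2% of lncRNA promoters.

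The 5 windows printed here range from GC-poor LINC01929, and LINC02009 near the lncRNA median, to head-to-head RUSC1-AS1, RNASEH1-AS1 and TPT1-AS1, the last 2 CpG-rich. They were chosen after their values were seen, as genes that went in opposite directions in the comparisons below, and each is printed 5′ to 3′ on the strand of the lncRNA, from RefSeq on GRCh38.p14. Capitals mark the letters TGANTCA (the AP-1 motif), CCAAT (the NF-Y motif), GGGCGG (the GC box) or CCGGAAG (the ETS motif), searched on both strands.
LINC02009, chr3:46423618-46423917, minus strand: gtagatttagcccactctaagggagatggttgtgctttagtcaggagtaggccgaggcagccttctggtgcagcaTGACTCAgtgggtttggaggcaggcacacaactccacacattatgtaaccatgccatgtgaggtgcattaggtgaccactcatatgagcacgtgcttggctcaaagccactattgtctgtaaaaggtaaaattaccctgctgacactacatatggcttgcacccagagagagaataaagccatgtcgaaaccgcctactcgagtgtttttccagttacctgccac
RUSC1-AS1, chr1:155324127-155324426, minus strand: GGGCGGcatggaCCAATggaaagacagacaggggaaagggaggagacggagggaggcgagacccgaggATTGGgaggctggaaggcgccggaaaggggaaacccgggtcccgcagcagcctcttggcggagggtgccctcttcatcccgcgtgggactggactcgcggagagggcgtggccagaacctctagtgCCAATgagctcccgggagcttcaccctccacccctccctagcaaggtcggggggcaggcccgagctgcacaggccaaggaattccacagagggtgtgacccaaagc
LINC01929, chr18:55124257-55124556, minus strand: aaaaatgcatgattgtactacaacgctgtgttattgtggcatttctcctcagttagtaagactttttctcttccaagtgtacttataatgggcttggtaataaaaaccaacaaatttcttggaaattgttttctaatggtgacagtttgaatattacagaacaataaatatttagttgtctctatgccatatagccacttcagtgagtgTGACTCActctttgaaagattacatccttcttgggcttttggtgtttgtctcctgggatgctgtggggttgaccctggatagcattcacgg
RNASEH1-AS1, chr2:3558136-3558435, plus strand: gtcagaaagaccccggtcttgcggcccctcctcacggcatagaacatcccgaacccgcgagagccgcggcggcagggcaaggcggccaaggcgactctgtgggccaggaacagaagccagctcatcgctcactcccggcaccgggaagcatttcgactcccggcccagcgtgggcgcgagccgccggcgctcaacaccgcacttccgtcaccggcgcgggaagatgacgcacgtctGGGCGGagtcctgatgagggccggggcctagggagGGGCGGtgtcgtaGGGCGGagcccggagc
TPT1-AS1, chr13:45341095-45341394, plus strand: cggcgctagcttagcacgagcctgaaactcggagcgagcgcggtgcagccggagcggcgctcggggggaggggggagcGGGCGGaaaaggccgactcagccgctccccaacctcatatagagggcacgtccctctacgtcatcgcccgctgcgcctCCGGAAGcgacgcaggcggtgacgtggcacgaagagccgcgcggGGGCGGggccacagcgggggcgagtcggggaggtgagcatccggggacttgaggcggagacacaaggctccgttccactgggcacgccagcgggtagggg

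The AP-1 letters lay 41 bases before the start of LINC01929, whose window has 37.7% GC and 2 CpG, and 175 bases before that of LINC02009, with 49.0% GC and 5 CpG. They occurred in 11.7% of member windows, 3.08% of head-to-head member windows, 10.5% of lncRNA promoters and 7.76% of all promoters. The head-to-head windows shown held 17 CpG for RUSC1-AS1, 35 for RNASEH1-AS1 and 38 for TPT1-AS1, and the start of the coding partner lay 331, 53 and 162 bases away. GC box letters were present in 53 of 65 head-to-head members (81.5%) and in 56.8% of all member windows. They occurred in 58.5% of protein-coding promoters, 25.4% of lncRNA promoters and 44.6% of all promoters. CCAAT letters were as common in member windows (37.1%) as in all promoters (35.7%). The ETS letters occurred in 18.3% of member windows, 14.2% of protein-coding promoters and 10.7% of all promoters. A match is a description of the letters and not a binding site.

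Against NTC, 13 members passed the test in the mean of both guides, 5 higher and 8 lower (limma, Benjamini-Hochberg adjusted p below 0.05 over all genes tested). That is 4.68% of members, beside 3.98% of all genes tested (1.74% higher and 2.25% lower), and the median log2 fold change was 0.04 in members and 0.00 in all genes. Of the 13, 9 were LINC genes. In each of the 13, all 6 knockout libraries lay on 1 side of all 3 NTC libraries, which held for 28 members in all, 12 higher and 16 lower, against 4.62% and 5.88% of all genes. In bulk RNA, fewer cells that express a gene and less RNA per cell cannot be told apart.

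**Figure D1:**
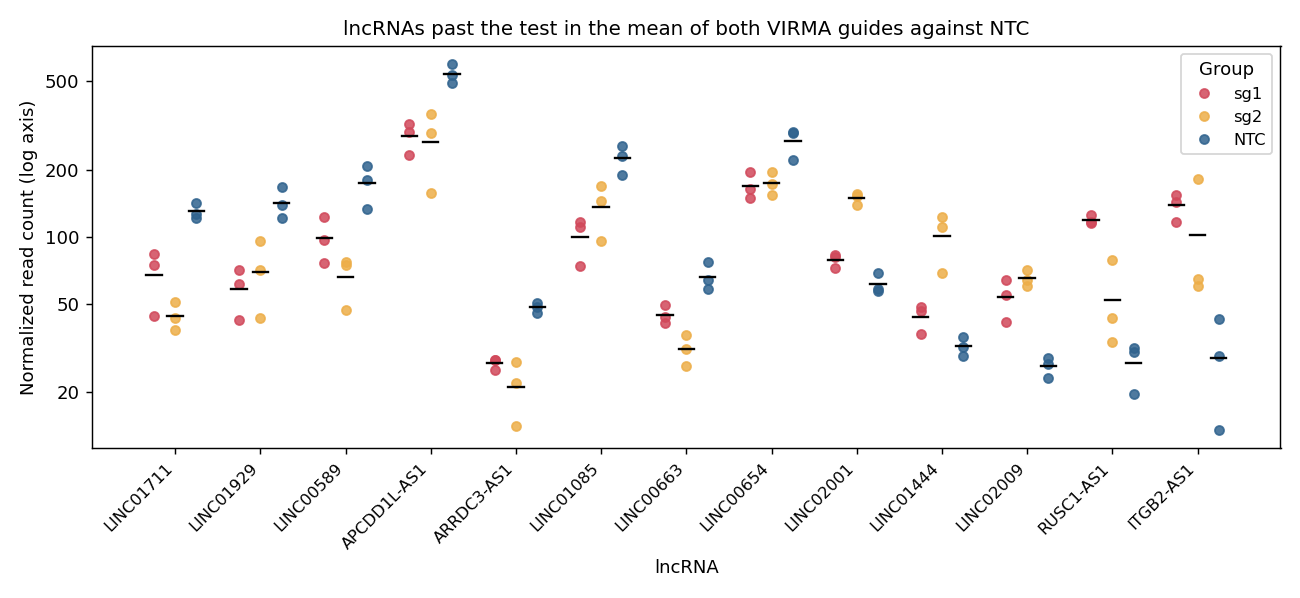
Normalized read counts (log axis) of the 13 lncRNAs past the test in the mean of both guides against NTC. Points are libraries, 3 each for sg1, sg2 and NTC, and bars are group means; LINC01711 to LINC00654 lie below NTC in all 6 knockout libraries and LINC02001 to ITGB2-AS1 above it.

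ITGB2-AS1, antisense to the gene of the leukocyte integrin beta-2 chain, had the highest rise. Its normalized counts were 154, 144 and 116 in sg1, 181, 64.3 and 60.1 in sg2, and 29.2, 42.5 and 13.6 in NTC. The log2 fold change on the log2(count + 1) scale was 2.06 ± 0.41 (SE; limma adjusted p = 0.0258). Every knockout library exceeded every NTC library, and sg2-1 lay with sg1 rather than with the other sg2 libraries. ITGB2 itself, whose span overlaps, had 422, 456 and 378 in sg1, 488, 219 and 240 in sg2 and 245, 322 and 295 in NTC, and did not pass the test (log2 fold change 0.30, limma adjusted p = 0.504).

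RUSC1-AS1 had 125, 116 and 116 in sg1, 78.7, 33.7 and 43.1 in sg2, and 31.5, 30.3 and 19.8 in NTC. It rose by 1.48 ± 0.27 in the mean of both guides (limma adjusted p = 0.0195) and by 2.12 with sg1 alone (limma adjusted p = 0.0415). The 3 sg1 libraries lay close together and far above NTC, while sg2-2 and sg2-3 lay just above the highest NTC library. RUSC1, which shares its promoter region and encodes an adaptor protein, had a log2 fold change of 0.20 (limma adjusted p = 0.385).

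The other 3 members that rose were LINC genes. LINC02009 had 64.2, 54.7 and 41.6 in sg1, 70.7, 60.1 and 64.0 in sg2, and 26.8, 23.3 and 28.4 in NTC (log2 fold change 1.13 ± 0.19, limma adjusted p = 0.0145). Here sg2-1 did not stand apart from its group, and every knockout library was above every NTC library. LINC02001, now named SNHG30 as a host gene of small nucleolar RNA, had 82.8, 72.7 and 81.2 in sg1, 139, 156 and 153 in sg2, and 57.2, 68.8 and 58.0 in NTC (log2 fold change 0.82 ± 0.14, limma adjusted p = 0.0154). LINC01444 had 46.6, 48.2 and 36.4 in sg1, 69.0, 122 and 111 in sg2, and 29.2, 35.4 and 32.1 in NTC (log2 fold change 1.00 ± 0.22, limma adjusted p = 0.0369). In both of these genes the sg2 libraries were above the sg1 libraries, and sg1-3 exceeded the highest NTC library of LINC01444 only narrowly. The NTC libraries of ITGB2-AS1, RUSC1-AS1 and LINC02009 averaged below 30, so these genes entered the set through their knockout libraries. The level limit thus favoured such rises.

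Among the 8 members that fell, LINC01711 had the largest decrease. It had 83.9, 74.3 and 44.2 in sg1, 43.3, 37.9 and 50.9 in sg2, and 142, 121 and 126 in NTC, a log2 fold change of -1.26 ± 0.22 (limma adjusted p = 0.0150). LINC01929, the gene of the GC-poor promoter printed above, had 61.1, 71.0 and 42.2 in sg1, 43.3, 70.6 and 95.4 in sg2, and 167, 121 and 138 in NTC (log2 fold change -1.19 ± 0.26, limma adjusted p = 0.0379). In both, no knockout library reached the lowest NTC library. LINC00589 fell by 1.10, LINC01085 by 0.97, LINC00663 by 0.81 and LINC00654 by 0.64 on the log2 scale, with limma adjusted p values of 0.0323, 0.0406, 0.0464 and 0.0458.

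Both antisense RNAs that fell did so with their sense gene. APCDD1L-AS1, now APCDD1L-DT, had 295, 320 and 234 in sg1, 157, 291 and 354 in sg2, and 595, 534 and 491 in NTC, a log2 fold change of -1.01 ± 0.23 (limma adjusted p = 0.0415). APCDD1L had 1384, 1520 and 1216 in sg1, 842, 648 and 662 in sg2, and 1746, 1699 and 1835 in NTC (log2 fold change -0.83, limma adjusted p = 0.00694). All 6 knockout libraries of both genes lay below all NTC libraries. The sense gene was lower in sg2 than in sg1 (log2 difference -0.94, limma adjusted p = 0.0102), and the antisense RNA did not pass that test (-0.15). ARRDC3-AS1 had 28.0, 25.3 and 27.9 in sg1, 14.2, 22.1 and 27.4 in sg2, and 45.5, 48.6 and 50.6 in NTC (log2 fold change -1.0 ± 0.23, limma adjusted p = 0.0464). Its partner ARRDC3, an arrestin-domain protein that directs cell surface receptors to degradation, fell by 0.99 (limma adjusted p = 0.00826). Both pairs overlap in span, so the strand limit given above holds for them.

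HAS2-AS1 is antisense to HAS2, the hyaluronan synthase gene that the study's title names. HAS2-AS1 had 39.3, 38.4 and 32.5 in sg1, 28.3, 39.0 and 39.2 in sg2, and 60.7, 51.6 and 66.6 in NTC. All 6 knockout libraries lay below all 3 NTC libraries, but the log2 fold change of -0.71 ± 0.20 did not pass the test (limma adjusted p = 0.0732). HAS2 had 784, 683 and 532 in sg1, 365, 788 and 816 in sg2, and 2436, 1633 and 2389 in NTC, a log2 fold change of -1.73 (limma adjusted p = 0.00826).

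Most of the 13 calls depend on single libraries. Without NTC-1 or without NTC-3, 0 of the 13 passed limma (35 and 39 members at an unadjusted p below 0.05), and 3 passed without NTC-2, beside 0.188%, 0.451% and 1.81% of all genes. Without sg1-1, sg1-2, sg1-3 or sg2-2 the count was 4, 3, 6 and 7, beside 1.46%, 1.4%, 2.77% and 2.04% of all genes. Without sg2-3 it was 10 (2.95% of all genes), and without sg2-1 it was 45 (21.6%). LINC02001 passed in 7 of 9 fits that left out 1 library, LINC02009 and LINC01711 in 6, ITGB2-AS1 and LINC00589 in 5, RUSC1-AS1 in 4, LINC00654 and LINC00663 in 1, and the other 5 in 2. Without both sg1-3 and sg2-1 all 13 passed in the same direction, among 33 higher and 26 lower members, beside 26.2% of all genes. In the fit with a replicate block for sg1 and sg2, 8 members passed, 4 of them among the 13, beside 2.46% of all genes.

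By single guide, 1 member passed with sg1, RUSC1-AS1, beside 0.194% of all genes (limma; 80 members had an unadjusted p below 0.05, edgeR called 0 and DESeq2 42, beside 0.169% and 14% of all genes). With sg2, 12 members were higher and 10 lower, 7.91% of members beside 8.76% of all genes (4.19% higher and 4.57% lower). No member passed with both guides, beside 0.15% of all genes in the same direction; 80 and 57 members had an unadjusted p below 0.05 with sg1 and with sg2. Besides genes already named, the largest changes with sg2 were rises of GAS6-AS2 (0.89) and ATP6V0E2-AS1 (0.88) and a fall of LINC02035 (-1.15), on the log2 scale. GAS6-AS2 had 91.1, 154 and 132 in sg2 and 66.5, 78.9 and 54.3 in NTC, and the groups did not overlap. LINC02035 had 78.7, 51.6 and 39.2 in sg2 and 117, 113 and 137 in NTC, again without overlap. In the fit with a replicate block for sg1 and sg2, 76 members passed with sg1 and 4 with sg2 (28.8% and 2.89% of all genes), and without sg2-1 86 passed with each (40.7% and 44.8% of all genes). With sg1, 0 passed limma without NTC-1, NTC-2, NTC-3, sg1-1, sg1-2, sg1-3 or sg2-3, where 59 to 83 members had an unadjusted p below 0.05. With sg2, 22 passed without sg1-3 (8.39% of all genes), and the count was 4, 8 and 6 without NTC-1, NTC-2 and NTC-3 (2.22%, 4.88% and 3.38%). It was 10 without sg1-1 or sg1-2 (5.51% and 5.54% of all genes), and 5 and 9 without sg2-2 and sg2-3 (2.98% and 3.7%).

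Between sg2 and sg1, 35 members were higher and 38 lower, 26.3% of members beside 29.8% of all genes tested (18.3% higher and 11.5% lower). Of these 73, 70 had no overlap between the sg2 and sg1 libraries, among 57 higher and 57 lower members without overlap, against 23.7% and 18.2% of all genes. The NTC mean lay between the means of the guides in 53 of the 73, so in these the means of sg2 and sg1 lay on opposite sides of NTC. The 73 were picked by the difference of the guides, which favours such an order, and the share over all genes called is not given here. In 52 of the 73, sg2-1 was nearer to the sg1 mean than to sg2-2 and sg2-3.

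**Figure D2:**
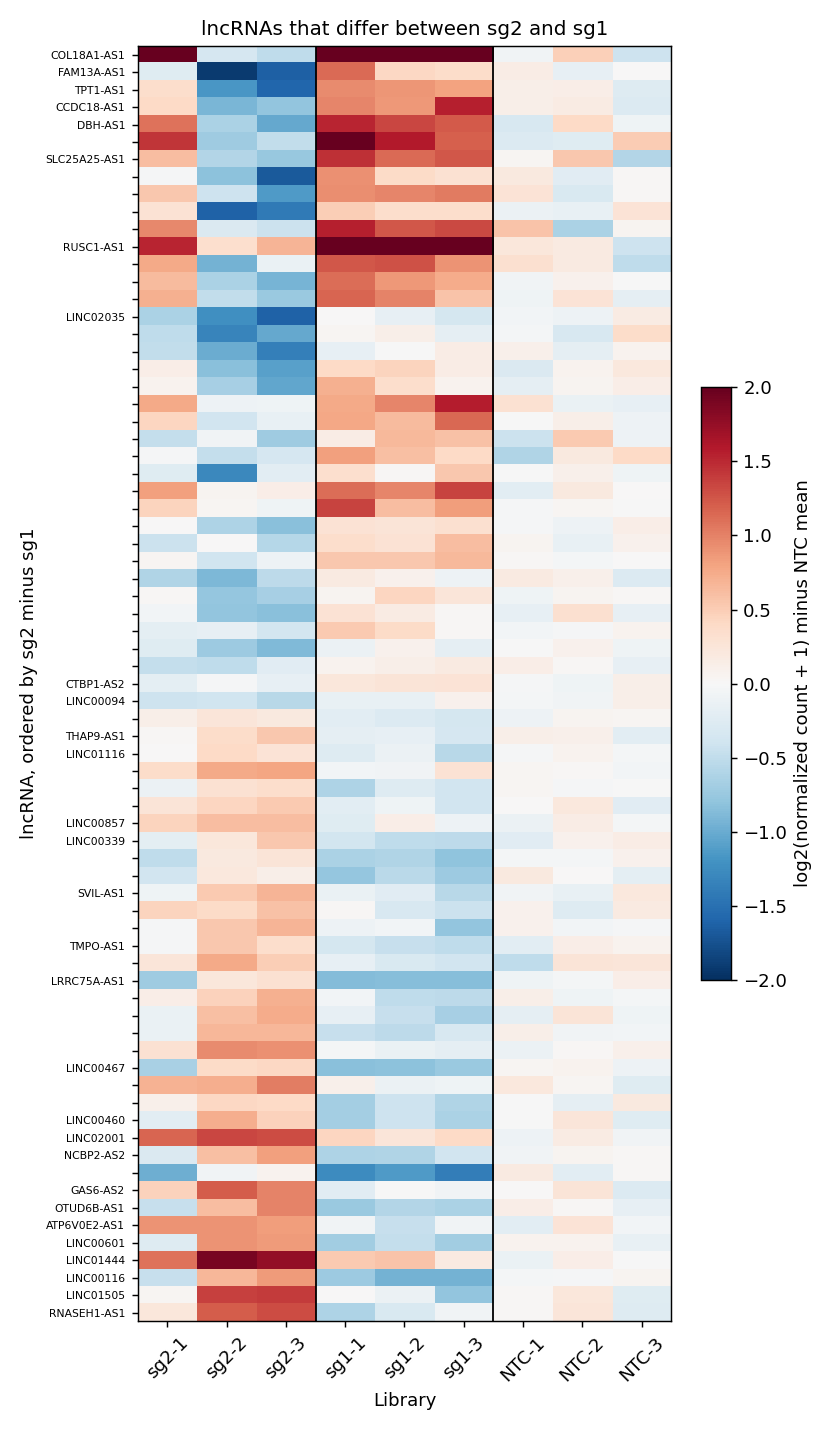
The 73 lncRNAs that differ between sg2 and sg1, as log2(normalized count + 1) minus the NTC mean in each library, ordered from lower to higher in sg2, with a label on the genes that the naming rule covers. Columns are the 9 libraries, sg2 left of sg1 and NTC; sg2-1 resembles the sg1 columns more than sg2-2 and sg2-3 in 52 rows.

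Among the members past the test, the largest differences downward were in antisense RNAs. COL18A1-AS1, antisense to the gene of collagen XVIII, had 58.4, 10.5 and 9.14 in sg2, 80.8, 70.2 and 63.7 in sg1, and 12.8, 19.2 and 9.87 in NTC. The log2 difference was -1.92 ± 0.59 (SE; limma adjusted p = 0.0376). The sg2-2 and sg2-3 libraries stood at the NTC level and sg2-1 stood near sg1. Of the libraries in the mean that defines members, only sg1-1, sg1-2 and sg2-1 exceeded 30. The gene thus entered the set through libraries in which it was high, and its low values lie near the count of 10 asked for testing. COL18A1 had 3056, 1964 and 1809 in sg2, 5264, 4876 and 5159 in sg1, and 7229, 6561 and 6330 in NTC. All 6 knockout libraries of the sense gene lay below NTC, while the antisense RNA was high in sg1 and sg2-1.

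TPT1-AS1 starts 162 bases from TPT1, which encodes an abundant protein of growth control. It had 123, 42.2 and 31.4 in sg2, 185, 178 and 168 in sg1, and 104, 105 and 80.2 in NTC, a log2 difference of -1.67 ± 0.41 (limma adjusted p = 0.0217). TPT1 had 6453, 17242 and 18148 in sg2, 7109, 7123 and 7622 in sg1, and 15814, 14802 and 18908 in NTC, and its log2 difference of 0.80 did not pass (limma adjusted p = 0.0895). The spans of TPT1-AS1 and TPT1 do not overlap. FAM13A-AS1, close to the level limit, had 25.6, 7.38 and 9.14 in sg2, 68.3, 40.8 and 39.6 in sg1, and 33.8, 27.3 and 30.9 in NTC (log2 difference -1.90 ± 0.43, limma adjusted p = 0.0190).

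Upward, RNASEH1-AS1, now RNASEH1-DT, starts 53 bases from RNASEH1, the gene of an enzyme that cuts RNA in RNA-DNA hybrids. It had 93.7, 186 and 197 in sg2, 51.8, 64.5 and 76.0 in sg1, and 80.5, 94.1 and 66.6 in NTC, a log2 difference of 1.24 ± 0.29 (limma adjusted p = 0.0204). LINC01505 had 31.8, 81.2 and 83.6 in sg2, 31.1, 28.6 and 17.5 in sg1, and 31.5, 36.4 and 25.9 in NTC (log2 difference 1.23, limma adjusted p = 0.0403). In LINC01505 the high libraries were sg2-2 and sg2-3, with sg2-1 at the level of sg1 and NTC. TPT1-AS1 and RNASEH1-AS1, both with CpG-rich head-to-head promoters, differed in opposite directions, but their windows were chosen for that reason. The contrast is therefore no result about promoter type.

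LRRC75A-AS1, now SNHG29 and a host of small nucleolar RNAs, had the most reads of all members, although counts also grow with transcript length. It had 4793, 9202 and 9745 in sg2, 4331, 4368 and 4389 in sg1, and 7420, 7657 and 8619 in NTC (log2 difference 0.79 ± 0.23, limma adjusted p = 0.0338). OTUD6B-AS1 had 498, 1041 and 1360 in sg2, 409, 456 and 439 in sg1, and 748, 695 and 611 in NTC (log2 difference 1.03, limma adjusted p = 0.0313). In both, sg2-1 lay below NTC with the sg1 libraries. AFAP1-AS1, FGD5-AS1, LINC00704 (now MANCR) and LINC01578 (now CHASERR) did not pass between the guides, with log2 differences of -0.24, 0.26, 0.32 and 0.22.

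The 73 calls also rest on single libraries. Without sg1-1, sg1-2, sg2-2 or sg2-3, 0 members passed limma (89, 93, 73 and 76 at an unadjusted p below 0.05), and without sg1-3 1 passed (0.958% of all genes). Without NTC-1, NTC-2 or NTC-3 the count was 36, 35 and 42 (18.5%, 19.3% and 22.1% of all genes), and without sg2-1 it was 153 (62.9% of all genes). When only the sg2 and sg1 libraries were in the fit, 0 members passed (103 at an unadjusted p below 0.05), beside 0.0188% of all genes. Without both sg1-3 and sg2-1, 162 passed, 71 of them among the 73, beside 64.0% of all genes.

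RefSeq lists 4 members as protein-coding: MMP24-AS1 (MMP24OS), LINC00094 (BRD3OS), LINC00116 (MTLN) and NCBP2-AS2 (NCBP2AS2). LINC00116 encodes mitoregulin, a small protein of the inner mitochondrial membrane, and LINC00467 has been shown to encode a mitochondrial peptide that binds ATP synthase. LINC00116 had 199, 434 and 498 in sg2, 166, 142 and 142 in sg1, and 267, 271 and 285 in NTC (log2 difference between guides 1.22 ± 0.29, limma adjusted p = 0.0203). LINC00467 had 260, 532 and 545 in sg2, 229, 231 and 243 in sg1, and 419, 429 and 379 in NTC (0.85 ± 0.25, limma adjusted p = 0.0328). NCBP2-AS2 followed the same order, with 174, 325 and 375 in sg2, 138, 140 and 164 in sg1, and 202, 220 and 216 in NTC (0.91 ± 0.25, limma adjusted p = 0.0278). LINC00094 differed in the other direction (-0.38, limma adjusted p = 0.0444), and MMP24-AS1 did not pass the test. Of the 12 LINC genes listed as later shown to encode small proteins 3 were tested. Of these, 2 were higher and 0 lower in sg2 than in sg1, beside 18.3% and 11.5% of all genes. Their median log2 difference was 0.85 beside 0.00 in all genes, and 3 genes are too few to compare with these shares.

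**Figure D3:**
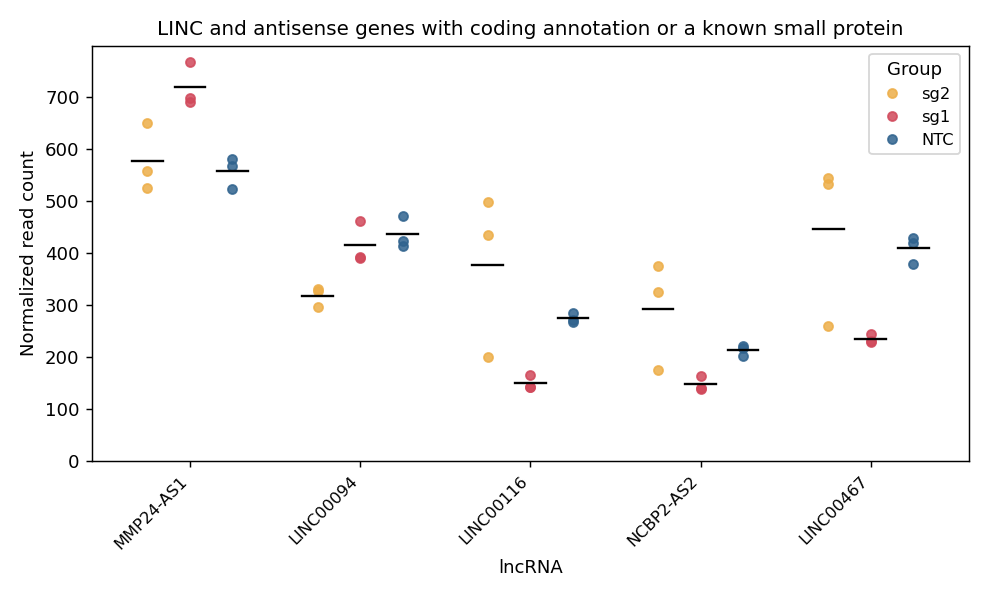
Normalized read counts of the 4 members annotated as protein-coding and of LINC00467, by group (sg2, sg1 and NTC). Points are libraries and bars group means; for LINC00116, NCBP2-AS2 and LINC00467 the sg2-1 library lies below every NTC library and sg2-2 and sg2-3 lie above every NTC library.

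A list of 32 lncRNAs studied in breast or other cancers had 22 tested genes. Between the guides 4 of the 22 were higher and 2 lower, beside 18.3% and 11.5% of all genes, so these counts do not set the list apart. The median log2 difference was 0.19 beside 0.00 in all genes. With sg2, LINC00857 and LINC01638 rose, beside 4.19% of all genes, and LINC01638 is no member. The members that were higher in sg2 than in sg1 were LINC00857 (0.63), LINC00460 (0.90), LINC01116 (0.54) and TMPO-AS1 (0.73), and TPT1-AS1 was the member that was lower; KCNQ1OT1, the other lower gene, carries no LINC or AS name. LINC00857 had 292, 329 and 328 in sg2, 180, 234 and 198 in sg1, and 197, 237 and 209 in NTC, with no overlap of sg2 with the other groups. LINC00472, described in breast cancer as a marker of good prognosis, had 282, 254 and 246 in sg1, 362, 153 and 150 in sg2, and 105, 131 and 128 in NTC. Its 6 knockout libraries lay above all NTC libraries, but its log2 fold change of 0.92 ± 0.26 did not pass (limma adjusted p = 0.0803). ZEB1-AS1 and SNAI3-AS1, the tested antisense RNAs of a list for genes of the epithelial-mesenchymal transition, had log2 fold changes of 0.01 and 0.34 in the mean of both guides and did not pass. Of 12 listed antisense RNAs of the HOX clusters, 0 had enough reads to be tested.

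The RNA exosome and its adaptors degrade many lncRNAs in the nucleus. Of 22 tested genes of that list, 11 were higher and 0 lower in sg2 than in sg1, with a median log2 difference of 0.49, beside 18.3% of all genes higher and 11.5% lower. These calls share the limit given above for sg2 against sg1, where 0.106% to 0.958% of all genes passed without any 1 of sg1-1, sg1-2, sg1-3, sg2-2 or sg2-3. EXOSC8, a subunit of the exosome ring, had 690, 1266 and 1271 in sg2, 553, 519 and 538 in sg1, and 804, 763 and 590 in NTC (log2 difference 0.95, limma adjusted p = 0.0206). DIS3, its nuclease, had 1752, 2845 and 2948 in sg2, 1510, 1653 and 1558 in sg1, and 2104, 1870 and 1908 in NTC (0.64, limma adjusted p = 0.0308). Against NTC, 1 gene of the list passed with sg2, EXOSC2 with a rise of 0.73, and 0 with sg1 or in the mean of both guides. The shares of all genes were 8.76% with sg2, 0.194% with sg1 and 3.98% in the mean of both guides. Of 12 genes listed under nonsense-mediated decay, not all of them specific to it, 2 were higher and 1 lower in sg2 than in sg1. Against NTC, UPF3B rose and XRN1 fell with sg2, and XRN1 fell in the mean of both guides. These calls stand beside the same shares of all genes. Whether decay factors bear on the members' levels was not tested.

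Antisense RNAs were then set beside the genes in their names, in 167 pairs with both genes tested. In the mean of both guides 4 antisense members and 11 sense genes passed, beside 3.98% of all genes. Both passed in 2 pairs, APCDD1L and ARRDC3, each in the same direction. The log2 fold changes of the pairs had a Pearson r of 0.24 and a Spearman rho of 0.27 across genes, which are not independent replicates and share libraries. Pairs with overlapping spans are pooled with the others here. Without strand their reads cannot be told apart, and the part of shared reads in r was not tested. Between sg2 and sg1 r was 0.11. There 41 antisense members and 55 sense genes of the 167 pairs passed, beside 29.8% of all genes. Both genes passed in 19 pairs, 12 in the same and 7 in opposite directions. Whether joint calls exceed what such shares give was not tested. Opposite pairs included GAS5-AS1 (-1.32) with GAS5 (0.60) and LRRC75A-AS1 (0.79) with LRRC75A (-1.02). Pairs in the same direction included OTUD6B-AS1 (1.03) with OTUD6B (0.89) and TTN-AS1 (-0.88) with TTN (-1.36). Those pairs were named after their values were seen.

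**Figure D4:**
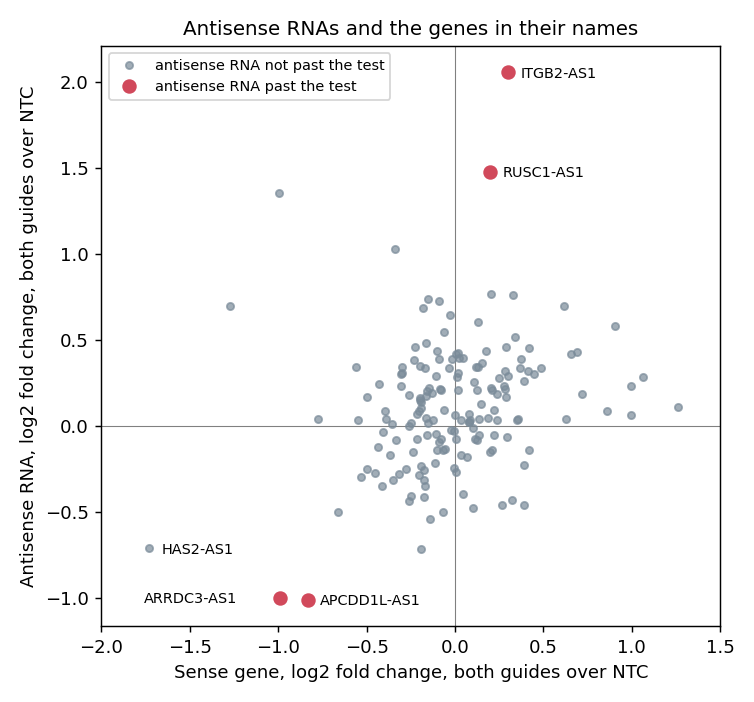
Log2 fold change of 167 antisense RNAs (vertical axis) against that of the genes in their names (horizontal axis), in the mean of both guides over NTC. Pairs with overlapping and with separate spans are pooled. Red points are the 4 antisense RNAs past the test; ARRDC3-AS1 and APCDD1L-AS1 lie low on both axes, ITGB2-AS1 and RUSC1-AS1 high on the vertical axis alone, and HAS2-AS1 at -1.73 and -0.71.

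Head-to-head pairs were compared in the same way. In 62 pairs with both genes tested r was 0.24 for the mean of both guides and -0.0046 for sg2 against sg1. Between the guides 11 members and 19 partners of the 62 pairs passed. Both genes passed in 5 pairs, 3 in the same and 2 in opposite directions. Of the 65 head-to-head members, 4 were higher and 7 lower in sg2 than in sg1 (16.9%). Of the 148 other members with a promoter entry, 24 were higher and 19 lower (29.1%). The share of all genes was 29.8%, with 18.3% higher and 11.5% lower. The difference of these shares was not tested.

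FEZF1-AS1 was the member high in a single library. It had 59.0, 57.2 and 587 in sg1, 53.9, 41.1 and 64.0 in sg2, and 58.3, 56.6 and 32.1 in NTC. Only sg1-3 was high, the library with the matrix and stromal genes described above, and FEZF1 was highest in the same library, at 187 against 23.8 to 53.6 elsewhere. Another 13 LINC and antisense genes below the level limit were also at least 8-fold higher in sg1-3 than in all but 1 of the other libraries, among them LINC01021 at 250, CCDC144NL-AS1 at 186 and LINC00982 at 142. In no other library was such a gene found.

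MeRIP-seq gave a readout that did not enter the choice of members. The authors' lists held 5745 KD summits and 8078 NTC summits on the main chromosomes (hg38), and 150 NTC summits fell in the spans of 104 members. Spans shared with other genes cannot be assigned, so the 68 NTC summits at places covered by a member and no other gene were used; they lay in 53 members, 25 LINC and 28 antisense. A KD summit lay within 100 nt of 27 of the 68 (39.7%, exact 95% interval 28.0% to 52.3%), against 3835 of 8078 NTC summits in all (47.5%), a share that lies within that interval. Among summits with a score of at least 10, 13 of 23 were kept (56.5%), beside 1855 of 2703 in all (68.6%). With 1 list per condition these shares carry counting error only and no replicate error, and the depth of these libraries is unknown here.

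The 53 members with an own summit had a median normalized count of 128, against 63.2 in the other 225. In the mean of both guides 0 of the 53 rose and 2 fell, LINC01711 and LINC00663, while 5 of the other 225 rose and 6 fell, beside 3.98% of all genes called. The median log2 fold change of the 53 was -0.07, beside 0.09 in the other members. The 53 were picked by a summit in NTC, which needs the RNA to be present in NTC cells. The other 225 include ITGB2-AS1, RUSC1-AS1 and LINC02009, which entered the set through their knockout libraries. The split thus favours falls in the 53 and rises in the others, and a link of m6A to these changes was not tested.

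The strongest NTC summit of a member, with a score of 24.6, lay at 81031888 on chromosome 17 in BAIAP2-AS1, now BAIAP2-DT, and the nearest KD summit was 950 nt away. Counts of BAIAP2-AS1 were 210, 216 and 379 in sg1, 162, 175 and 192 in sg2, and 293, 252 and 300 in NTC. LINC00339 had a summit at the same base, 22030605 on chromosome 1, in KD with a score of 19.6 and in NTC with 20.3. LINC00205 had 5 NTC summits between 45290807 and 45296172 on chromosome 21, and each had a KD summit within 52 nt. LINC00094 had 3 NTC summits, of which 1 had a KD summit within 100 nt, and NCBP2-AS2 had 2, of which the weaker was kept 2 nt away. LINC01711, the member with the largest fall, had 1 NTC summit at 58635544 on chromosome 20 with a score of 13.3, and the nearest KD summit was 2390 nt away; its RNA was lower in the knockout lines, and the scores were not corrected for the level of RNA here. Scores were read within each list only, since the lists come from separate peak calls.

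**Figure D5:**
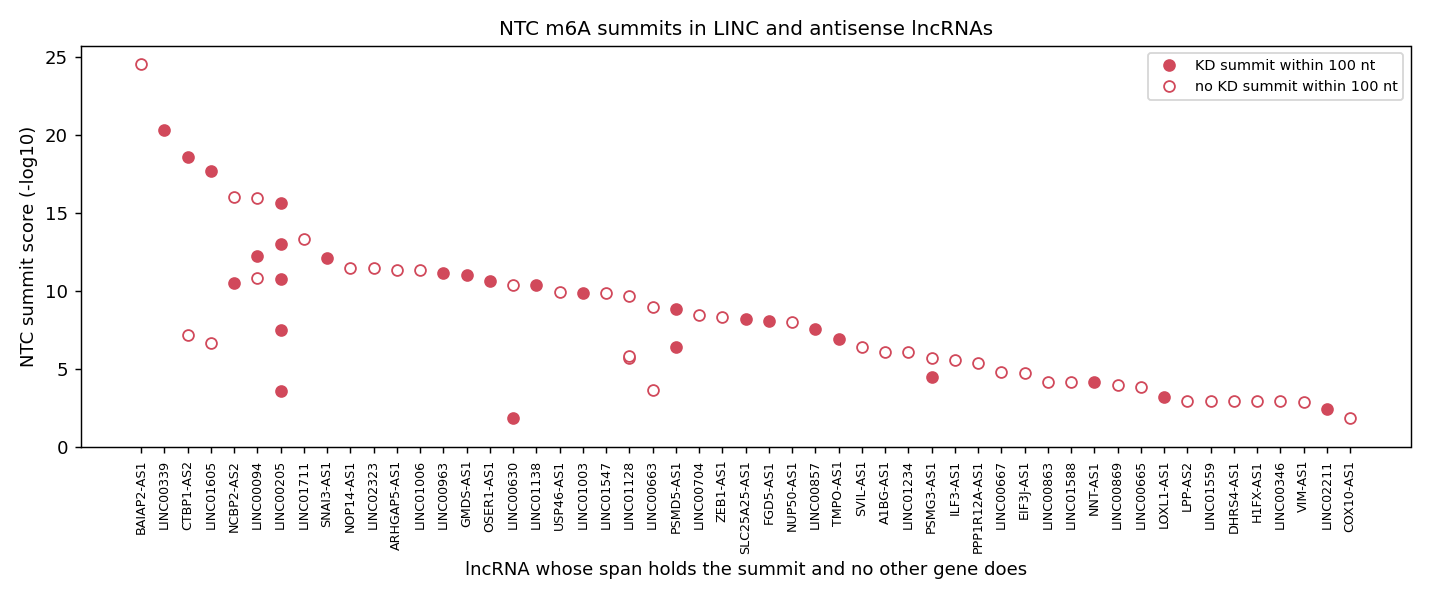
Scores of the 68 NTC m6A summits that lie in the span of 1 lncRNA and of no other gene, for 53 lncRNAs ordered by their highest score. Filled points have a KD summit within 100 nt (27) and open points do not (41); all 5 summits of LINC00205 are filled.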

How the data were processed

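RNA-seq of 9 MDA-MB-231 libraries (3 each of sg1, sg2 and NTC) and 2 MeRIP-seq summit lists (1 KD, 1 NTC) were used, grouped by sample title. Among the tools in the submitters' processing notes, which give no roles, are STAR, cutadapt, MACS2, HTSeq, FastQC 0.11.8 and DESeq2, with build hg38. The deposited RNA-seq values are a normalized signal, reads divided by 1 factor per library; 100.0% of values were whole multiples of that factor within 0.1 read, less certainly for NTC-2, and depth comes from the recovered reads. The deposited summits carry a -log10 score.

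limma 3.58.1 (R 4.3.3) was fitted to log2(value + 1) of all 3 groups with a trended prior variance. A value of 10 or more in 3 or more libraries was required, which 15965 of 38616 genes met, with Benjamini-Hochberg adjustment over all of them and a threshold of 0.05. This scale understates the change of low genes. edgeR 4.0.16 and DESeq2 1.42.0 on recovered reads, other scalings, filters, pseudocounts, blocks and left-out libraries were alternatives.

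Deviations from the group means were related between sg1 and sg2 libraries of 1 number (correlations 0.156 to 0.258; different numbers -0.303 to -0.0096), and not between NTC and knockout libraries of 1 number (-0.131 to 0.020). Deviations cancel within a group, so the values for different numbers are not independent of those for the same number. The pairing of sg1 with sg2 comes from the data and not from the labels, and the block for sg1 and sg2 rests on it.

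The members, lists and alternatives were chosen with earlier results of these data known. Named were all members called in the mean of both guides, up to 6 in each direction for each single comparison without overlap, the 8 with the most reads, members on the lists, members high in 1 library, the genes next to the level limit, up to 10 with their own m6A summit, HAS2-AS1 and the sense partners. Gene names matched for 276 of 278 members. Promoters and positions came from RefSeq on GRCh38.p14 and promoter entries were found for 213 members. An antisense gene and its partner are not reported by name here.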

Additional observations from a re-analysis of the deposited data

Results flagged for a closer look

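The count of 73 members that differ between sg2 and sg1 is listed because the difference of the guides was itself tested, in the same model. The share of 26.3% was close to that of all genes, 29.8%, so the count does not set the members apart. Without sg1-1, sg1-2, sg2-2 or sg2-3, and in a fit of the sg2 and sg1 libraries alone, 0 members passed limma, with 73 to 103 at an unadjusted p below 0.05. The 12 named members among them had log2 differences, sg2 minus sg1, of -1.92 for COL18A1-AS1, -1.90 for FAM13A-AS1, -1.67 for TPT1-AS1, -1.56 for CCDC18-AS1, -1.55 for DBH-AS1 and -1.52 for SLC25A25-AS1, and of 1.24 for RNASEH1-AS1, 1.23 for LINC01505, 1.22 for LINC00116, 1.15 for LINC01444, 1.12 for LINC00601 and 1.08 for ATP6V0E2-AS1. CCDC18-AS1 had 190, 75.9 and 82.3 in sg2, 282, 263 and 423 in sg1, and 155, 160 and 118 in NTC. LINC00601 had 59.2, 134 and 129 in sg2, 43.5, 50.6 and 43.5 in sg1, and 74.7, 74.8 and 64.2 in NTC. Small RNA reads per 10000 moved with the same split, at 31.2, 103 and 98.7 in sg2 and 20.6 to 27.3 in sg1, and their part was not tested. No outlier test was made within groups of 3 libraries.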

How the results depend on the processing

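Of the results of named members, no direction was reversed under any alternative run; 762 kept their side of the threshold, 415 no longer passed and 9 newly passed. Members called with sg1, 1 in the fit reported, numbered 42 with DESeq2, 0 with edgeR (82 at an unadjusted p below 0.05), 0 among members with a mean of 60, 0 with the replicate block over all groups (77 at an unadjusted p below 0.05), 76 with the replicate block in sg1 and sg2 and 87 in a fit of sg1 and NTC alone; the shares of all genes were 14% with DESeq2, 0.169% with edgeR, 0.0% and 28.8% with those blocks and 37.4% in that fit. With sg2, 22 became 34 with DESeq2, 10 with no filter, 12 and 4 with those 2 blocks and 7 in a fit of sg2 and NTC alone (16.6%, 2.26%, 6.32%, 2.89% and 4.0% of all genes). In the mean of both guides, 13 became 27 with DESeq2, 6 with no filter and 5 and 8 with the blocks (10.2%, 0.87%, 1.82% and 2.46% of all genes); a fit of the groups compared alone leaves no group out there and gives no value. Between sg2 and sg1, 73 became 37 with no filter (8.33% of all genes) and 0 in a fit of sg2 and sg1 alone (limma; 103 at an unadjusted p below 0.05; 0.0188% of all genes). Without sg1-3 and sg2-1 the 4 counts were 95, 102, 59 and 162, beside 41.1%, 50.2%, 26.2% and 64.0% of all genes. Leaving out 1 library gave 0 to 86, 4 to 86, 0 to 45 and 0 to 153, beside 0.0% to 40.7%, 2.22% to 44.8%, 0.188% to 21.6% and 0.106% to 62.9%. Between the guides the blocks gave 67 and 92 (27.6% and 39.4%).

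The members' median log2 fold change with sg1 was 0.111 with DESeq2, 0.0973 with TMM scaling, 0.109 with edgeR, -0.0212 at a mean of 60 and 0.0464 to 0.0949 without 1 library. With sg2 it was 0.0069 with TMM, 0.0913 with the replicate block in sg1 and sg2, -0.0050 without sg1-3 and sg2-1 and -0.0050 to 0.0733 without 1 library. In the mean of both guides it was 0.0767 with DESeq2, 0.0743 without both libraries and 0.0395 to 0.0870 without 1. Between the guides it was -0.0829 with DESeq2, -0.115 with TMM, -0.111 with edgeR, 0.0409 at a mean of 60 and -0.0721 to -0.0379 without 1 library. The r of antisense and sense changes was 0.208 with DESeq2 and 0.209 with edgeR for sg1, and without both libraries 0.149, 0.11 and 0.171 for sg1, sg2 and the mean of both. Without 1 library it was 0.149 to 0.230, 0.11 to 0.275, 0.211 to 0.270 and 0.096 to 0.150 between the guides. At a score of at least 10, 56.5% of the members' m6A summits were kept. Causes were not tested. Members just inside the limit have values near 30, and how depth limits them was not tested.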
